A study of Mus musculus with 40 samples.

Results

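The unfolded protein response and the ATF4 response were followed through 32 genes in the right kidney of mice that had lost the left kidney (unilateral nephrectomy, UNx) or had been sham operated. The genes were listed by their known roles, with earlier results of these data known. All 32 were found among the 28467 genes of the bulk table and the 32285 genes of the nucleus table. They are treated as 2 arms. The ER arm has 22 genes: 14 chaperones and folding enzymes of the endoplasmic reticulum (ER), and 8 stress sensors, the transcription factor gene Xbp1 and factors of ER-associated degradation. The ATF4 arm has 10 genes, Atf4 itself and 9 genes that ATF4 is known to induce.

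All mice were male C57BL/6 animals aged 8-12 weeks per the labels. Bulk RNA-seq of poly(A) RNA from a cross-section of the kidney came from 36 mice killed 24, 48 or 72 h after surgery, with 6 shams and 6 UNx mice per time. Nuclei sorted by DNA stain were sequenced singly from another 4 mice, 2 shams and 2 UNx mice at 24 h. The labels put all 24 h bulk libraries in batch 1 and those of 48 and 72 h in batch 2, so levels at 24 h and at the later times cannot be told apart from the batch. Sham and UNx were therefore compared within a time. A cross-section mixes all kidney cell types, and in bulk samples fewer cells of a type and less RNA per cell cannot be told apart.

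Secreted and membrane proteins fold in the ER. When unfolded proteins build up there, the sensors IRE1 (gene Ern1), ATF6 (Atf6) and PERK (Eif2ak3) are set free from the chaperone BiP (Hspa5). IRE1 splices Xbp1 RNA, ATF6 is cut to a transcription factor, and both raise chaperones and degradation factors. PERK phosphorylates the translation factor eIF2alpha, which lowers protein synthesis but favours translation of ATF4. Other kinases, such as the amino acid sensor GCN2, act on the same factor, so ATF4 targets can move without ER stress. The kidney tubule, and the proximal tubule above all, is rich in membrane transporters and makes serine.

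Many ER chaperone promoters hold the ER stress response element (ERSE, the letters CCAAT and CCACG with 9 bases of any kind between them) or its compact form ERSE-II (ATTGG and CCACG with 1 base between), through which ATF6 and XBP1 act. ATF4 with C/EBP partners binds C/EBP-ATF response elements, searched here as TGATGNAA. Windows from 250 bases before to 50 bases after each RefSeq start (GRCm38.p6) were searched on both strands. A promoter entry was matched for 29 of the 32 genes, and Manf, Hyou1 and Atf6 were among those not matched. ERSE was found in 8 of the 19 ER arm promoters and in 0 of the 10 of the ATF4 arm, against 0.119% of all 32851 promoters. ERSE-II was found for Dnajb11 and Herpud1, against 0.0365% of all promoters. The UPR element (TGACGTGG) was found in 0 members and in 0.676% of all promoters. The C/EBP-ATF element was found for Trib3, Asns, Chac1 and Herpud1, against 3.97% of all promoters. A match of letters is a description, not a binding site.

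The sequences shown first belong to the members that held a match and rose at 24 h, lowest p first. Capitals mark the match, and for Creld2 it lies on the strand opposite to the gene. The windows lie at chr2:34772020-34772048 (Hspa5), chr15:88819500-88819558 (Creld2), chr19:6046512-6046570 (Syvn1), chr16:22857843-22857871 (Dnajb11), chr12:17266471-17266529 (Pdia6) and, on the minus strand, chr11:50325780-50325838 (Canx). All are on GRCm38. The Hspa5 window lies before the RefSeq start but inside the gene as annotated by GENCODE. The Dnajb11 match lies after the RefSeq start, and its window overlaps the annotated gene.
Hspa5: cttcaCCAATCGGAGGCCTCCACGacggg
Creld2: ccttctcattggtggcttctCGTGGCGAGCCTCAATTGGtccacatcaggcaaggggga
Syvn1: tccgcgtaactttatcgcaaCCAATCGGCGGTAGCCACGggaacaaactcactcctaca
Dnajb11: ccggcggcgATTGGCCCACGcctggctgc
Pdia6: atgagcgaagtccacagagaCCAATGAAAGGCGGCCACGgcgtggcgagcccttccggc
Canx: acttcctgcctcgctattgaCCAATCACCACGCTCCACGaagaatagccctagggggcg

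Hsp90b1 and Calr carry the same element but did not pass the test at 24 h. They are shown for contrast and were chosen after their values were seen. Both genes lie on the minus strand, Hsp90b1 with matches in chr10:86705618-86705676 and, on the opposite strand, chr10:86705513-86705571, and Calr with an opposite-strand match in chr8:84847055-84847113.
Hsp90b1, first match: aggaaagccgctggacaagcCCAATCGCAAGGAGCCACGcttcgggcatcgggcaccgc
Hsp90b1, second match: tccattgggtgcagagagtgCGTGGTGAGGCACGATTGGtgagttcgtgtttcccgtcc
Calr: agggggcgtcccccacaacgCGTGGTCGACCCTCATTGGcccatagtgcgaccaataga
Holding the element did not separate the ER arm genes that rose at 24 h from the others. Of the 10 ER arm genes with ERSE or ERSE-II, 6 rose, with a median log2 change of 0.23. Of the 9 with neither, 5 rose, with a median of 0.26, and of the 3 without an entry 2 rose.

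Bulk libraries held 14.9 to 24.1 M estimated counts. Summed proximal tubule markers stood at 13536 to 19526 CPM (counts scaled to a library of 1 M) in every library. The summed levels of all 15 marker lists overlapped between sham and UNx at each time, but the ranges of adipose tissue markers were wide. At 24 h these ran from 0.177 to 3.44 CPM in shams and from 0.0419 to 637 CPM in UNx. At 48 h they ran from 0.431 to 328 CPM in shams and from 0.102 to 145 CPM in UNx. The part of fat in the results was not tested. The libraries also differ in a profile that surgery alone does not follow. A score was built from 149 pseudogenes that differed between the 24 h shams and the shams of 48 and 72 h (limma adjusted p under 0.05). It was weighted by that difference and set to average 0 in the shams of 48 and 72 h and 1 in those of 24 h. The shams thus set the score and the UNx libraries did not, so their scores are not like for like. UNx libraries scored 0.690 to 0.881 at 24 h, below all 24 h shams (0.954 to 1.04). At 48 h, UNx replicates 1 to 5 scored 0.646 to 0.730 and stood apart from the shams (-0.0514 to 0.0539), whereas UNx replicate 6 scored 0.0241. The share of mitochondrially encoded RNA divided the 48 h libraries in the same way, with 25.8% to 26.4% in UNx replicates 1 to 5, 15.2% in UNx replicate 6 and 14.0% to 15.5% in shams. At 72 h the scores overlapped. The 24 h libraries, of another labelled batch, had 21.5% to 26.7% of such RNA, so 48 h UNx replicates 1 to 5 resembled the 24 h libraries and UNx replicate 6 the 48 h shams. The labels give no reason for this. In these 5 libraries the profile and the surgery cannot be told apart, which bears on every 48 h difference and on the differences between 48 h and the other times. Calls of the members at 48 h are therefore given with and without UNx replicate 6.

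At 24 h the ER arm moved one way. With edgeR's quasi-likelihood test and an adjusted p under 0.05 over all genes, 13 of its 22 genes were higher in UNx and 0 were lower, against 14.2% and 13.1% of all 14104 genes tested, 27.3% in all. The median log2 change of the 22 was 0.25, against 0.01 over all genes, and 19 of 22 were above 0. DESeq2 and limma voom also called 13. The groups did not overlap for 2 of the 22, both with UNx above, against 10.4% of all genes in either direction, 5.75% with UNx above and 4.62% below. By role, 9 of the 14 chaperones and 4 of the 8 sensors and degradation factors rose.

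**Figure D1:**
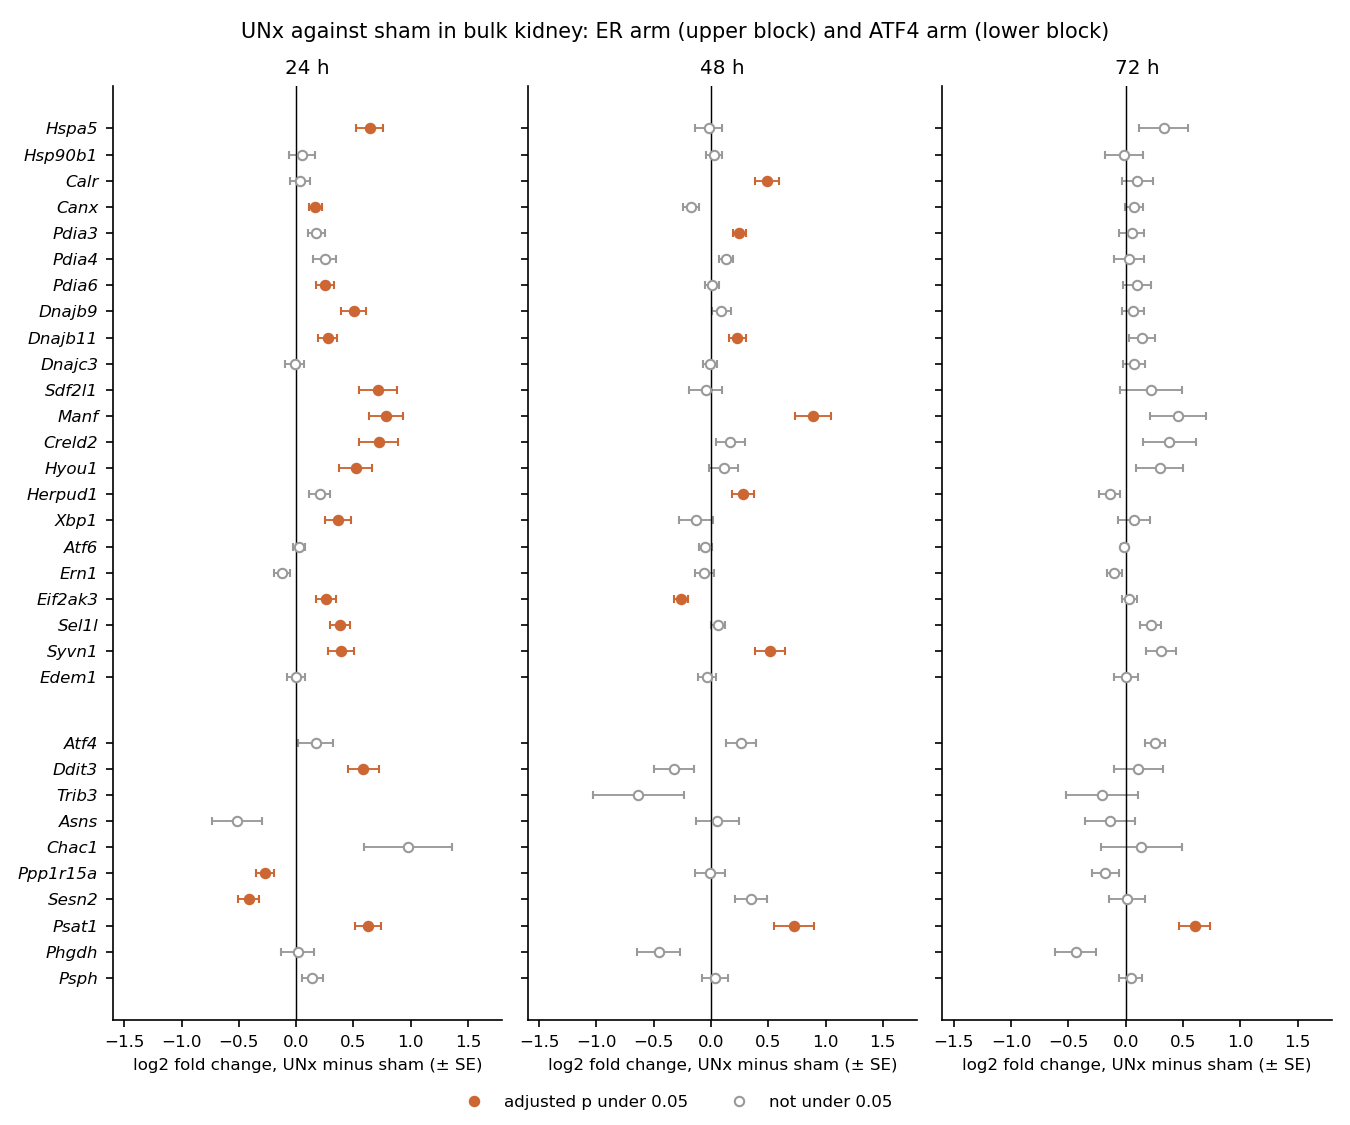
Log2 fold change of each member, UNx minus sham, with its standard error, at 24, 48 and 72 h in bulk kidney (6 against 6 mice at each time). Filled points have an adjusted p under 0.05 in edgeR. The ER arm is mostly right of 0 at 24 h, Manf is far right at 24 and 48 h, and Psat1 is filled at all 3 times.

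Hspa5 encodes BiP, the main ER Hsp70 and the gene most used as a gauge of the response. The gene lies on the plus strand of chr2:34771970-34777547 (GRCm38). Its level was 413, 459 and 656 CPM (lowest, median, highest) in shams and 589, 785 and 887 CPM in UNx at 24 h. All UNx mice but replicate 2 stood above every sham. The rise was 1.56-fold (log2 change 0.64 ± 0.116 SE, edgeR adjusted p = 0.0012). Manf, a small secreted ER protein that is induced by ER stress, stood at 33.6, 36.3 and 56.0 CPM in shams and 50.4, 66.3 and 92.1 CPM in UNx. Again 5 of 6 UNx mice were above all shams, and the rise was 1.73-fold (0.79 ± 0.149 SE, edgeR adjusted p = 0.0016). In the annotation used here Manf overlaps Rbm15b on its own strand, and how the authors' counting divided reads between them is not given in the sources used here.

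Further ER proteins rose at 24 h. Sdf2l1, a component of BiP-containing chaperone complexes, was at 4.25, 6.31 and 7.81 CPM in shams and 6.44, 10.4 and 13.7 CPM in UNx, a 1.64-fold rise (edgeR adjusted p = 0.0061). Creld2, an ER stress-induced protein that interacts with disulfide isomerases, went from 16.9, 20.8 and 30.1 CPM to 24.3, 34.1 and 47.5 CPM, a 1.65-fold rise (edgeR adjusted p = 0.00641). In both genes the groups overlapped, with 5 UNx mice above all shams for Sdf2l1 and 3 for Creld2. Hyou1, a large ER chaperone that also exchanges the nucleotide of BiP, rose 1.43-fold (93.3, 115 and 159 CPM to 123, 165 and 209 CPM, edgeR adjusted p = 0.0152). Dnajb9, a J-domain protein that returns BiP to IRE1, was at 34.6, 36.7 and 40.1 CPM in shams and at 43.9, 49.3 and 74.1 CPM in UNx, with no overlap (1.42-fold, edgeR adjusted p = 0.00363). The remaining chaperone genes that rose did so by less: Dnajb11 by 0.28, Pdia6 by 0.25 and Canx by 0.17 on the log2 scale.

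The other 5 chaperone genes did not pass the test. Hsp90b1, the ER Hsp90, was at 574, 702 and 982 CPM in shams and 599, 768 and 891 CPM in UNx (log2 change 0.05 ± 0.116 SE, edgeR adjusted p = 0.778). Calr, the lectin chaperone calreticulin, was at 889, 1079 and 1248 CPM in shams and 952, 1088 and 1300 CPM in UNx (0.03 ± 0.0867 SE, edgeR adjusted p = 0.827). In both, the groups covered nearly the same range. Of the disulfide isomerases, Pdia4 (112, 116 and 156 against 116, 146 and 181 CPM) had an edgeR adjusted p of 0.0801 and Pdia3 one of 0.0891. Dnajc3, a J-domain co-chaperone of BiP that also inhibits PERK, had a log2 change of -0.01.

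Among sensors and degradation factors, Xbp1 went from 69.4, 87.7 and 109 CPM to 86.7, 117 and 134 CPM, and 4 of 6 UNx mice were above all shams (1.29-fold, edgeR adjusted p = 0.0238). Gene-level counts do not separate its spliced from its unspliced RNA. Syvn1 and Sel1l encode the ubiquitin ligase HRD1 and its partner, the core of ER-associated degradation, and both rose 1.31-fold. Syvn1 was at 37.6, 43.8 and 44.8 CPM in shams and at 47.1, 51.2 and 80.2 CPM in UNx, with no overlap (edgeR adjusted p = 0.0183), and without UNx replicate 1 its log2 change of 0.39 was 0.26. Sel1l had an edgeR adjusted p of 0.00464. Eif2ak3 rose by 0.26 on the log2 scale (edgeR adjusted p = 0.0414), whereas Atf6 (0.03), Ern1 (-0.12) and Edem1 (0.00) did not pass. Herpud1, a degradation factor and a target of both arms, stood at 187, 205 and 256 CPM in shams and 222, 237 and 310 CPM in UNx (edgeR adjusted p = 0.102).

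**Figure D2:**
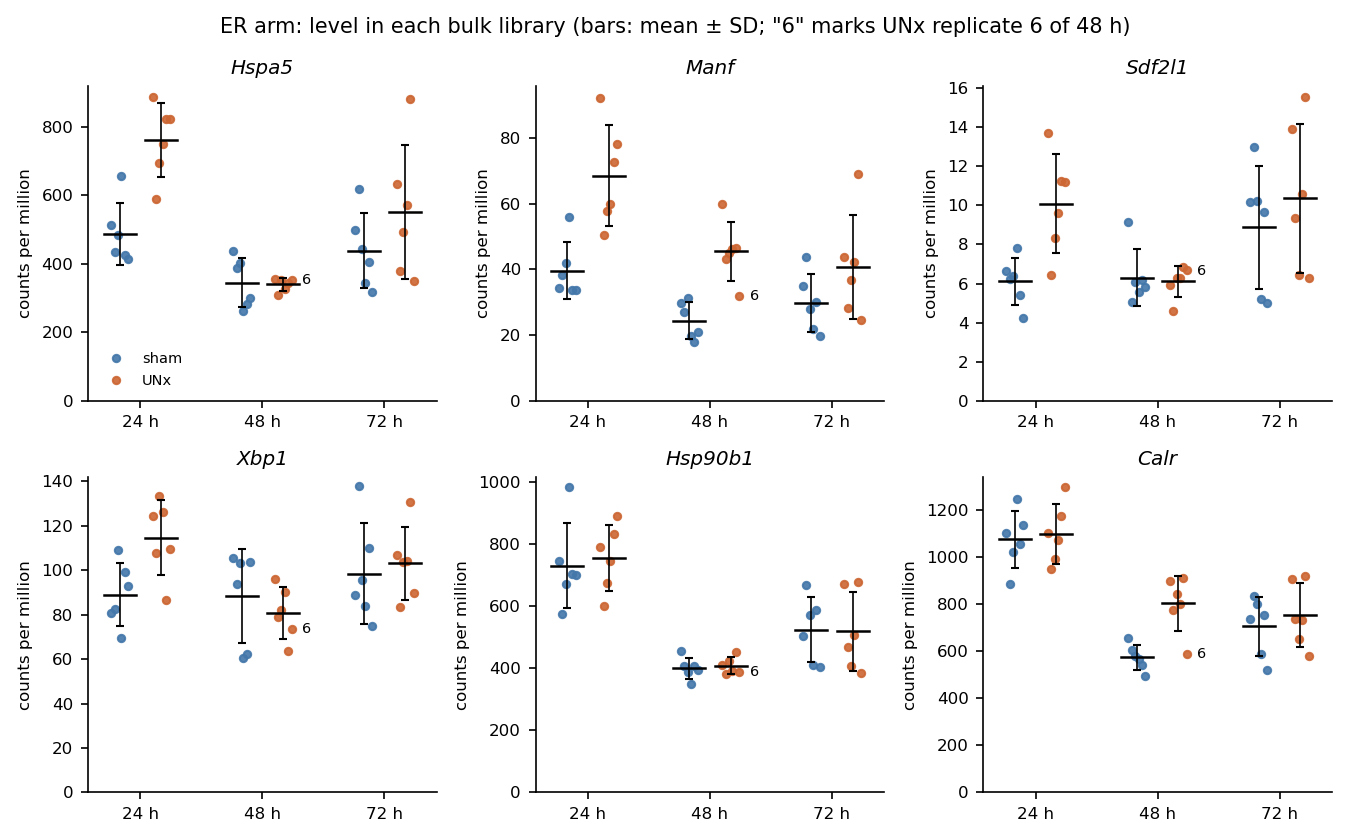
CPM of 6 ER arm genes in each bulk library by time and group, 1 point a mouse, bars for mean ± SD of 6 mice. At 24 h Hspa5, Manf, Sdf2l1 and Xbp1 are higher in UNx while Hsp90b1 and Calr cover one range, and at 48 h UNx replicate 6, marked 6, is lowest of its group for Manf and Calr.

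Single libraries held the extreme of many ER arm genes in most groups. Of the 22 genes, 15 were highest in the same 24 h sham (replicate 4) and 15 in the same 24 h UNx mouse (replicate 1), and 14 were lowest in UNx replicate 2. At 48 h 17 were highest in sham replicate 1, but among the UNx mice no library was highest for more than 6 or lowest for more than 7. The highest mouse was a median 1.39 times the lowest among the 24 h shams and 1.42 times among the UNx mice. Leaving out single libraries at 24 h gave 9 to 14 ER arm calls, 9 without sham replicate 5 or UNx replicate 5. The calls of Canx, Eif2ak3, Pdia6, Xbp1 and Dnajb11 were lost on leaving out 9, 8, 6, 2 and 2 of the 12 libraries, where the adjusted p rose to at most 0.0896, 0.097, 0.0697, 0.0581 and 0.0539 (without UNx replicate 5, UNx replicate 1, UNx replicate 5, UNx replicate 3 and sham replicate 5). The share of all genes called with the profile score as a covariate is not given here, and 0 of the 22 were called in that fit. The log2 change of Hspa5 was then 0.93 (edgeR adjusted p = 0.288) and that of Manf 1.25 (edgeR adjusted p = 0.245). Since the scores of the 24 h groups do not overlap, profile and surgery cannot be told apart there. Markers of other cells moved at 24 h too. All 8 fibroblast and mural cell markers had positive log2 changes (median 0.54) and 3 passed, with summed levels of 125 to 195 CPM in shams and 185 to 358 CPM in UNx. All 5 red blood cell markers had positive values (median 0.38) and 2 passed, with sums of 110 to 176 CPM in shams and 136 to 196 CPM in UNx. The part of these cells in the rise of the ER arm was not tested. Summed plasma and B cell markers, cells rich in ER chaperones, were at 18.7 to 25.0 CPM in 24 h shams and 18.9 to 28.4 CPM in UNx.

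The ATF4 arm was divided at 24 h. One of its genes, Trib3, was too low to test (0.205 to 0.562 CPM in shams, 0.205 to 0.601 CPM in UNx). Of the other 9, 2 rose and 2 fell, against the same 14.2% and 13.1% of all genes, and DESeq2 and limma voom made as many calls. Psat1, the aminotransferase of serine synthesis, lies on the minus strand of chr19:15904678-15947337 (GRCm38) and overlaps Gm3329 on the other strand. It stood at 17.9, 22.5 and 25.7 CPM in shams and at 26.3, 34.2 and 44.2 CPM in UNx, with no overlap (1.54-fold, log2 change 0.62 ± 0.113 SE, edgeR adjusted p = 0.00123). Ddit3, which encodes the stress factor CHOP, was at 4.38, 4.76 and 5.07 CPM in shams and at 5.33, 6.77 and 9.62 CPM in UNx, also with no overlap (1.50-fold, 0.59 ± 0.136 SE, edgeR adjusted p = 0.00557). Ddit3 overlaps Mars and Gm4189 on the other strand and another entry of the same name on its own strand. How the authors' counting divided reads between the entries is not given in the sources used here.

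Sesn2 and Ppp1r15a went down. Sesn2, a stress-induced inhibitor of mTORC1 signalling, was at 30.9, 36.6 and 40.6 CPM in shams and 21.6, 26.7 and 32.5 CPM in UNx, with 5 of 6 UNx mice below all shams (0.75-fold, edgeR adjusted p = 0.00375). Ppp1r15a, which encodes GADD34, the phosphatase subunit that reverses eIF2alpha phosphorylation, was at 11.1, 13.1 and 14.5 CPM in shams and 9.94, 10.7 and 11.7 CPM in UNx (0.83-fold, edgeR adjusted p = 0.0182). For Ppp1r15a 4 of the 6 UNx mice lay below every sham.

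The remaining ATF4 arm genes did not pass at 24 h. Atf4 RNA was at 49.0, 65.6 and 74.8 CPM in shams and 49.6, 74.8 and 96.6 CPM in UNx (log2 change 0.17 ± 0.152 SE, edgeR adjusted p = 0.427); its protein, which is set by translation, was not measured. Asns, asparagine synthetase, was at 4.66, 9.24 and 14.3 CPM in shams and 4.63, 6.20 and 8.50 CPM in UNx (edgeR adjusted p = 0.0922). Chac1, a glutathione-degrading enzyme, was at 0.354, 0.431 and 1.18 CPM against 0.563, 0.906 and 2.22 CPM (log2 change 0.98 ± 0.386 SE, edgeR adjusted p = 0.072). In each of these 3 genes the groups overlapped. The other enzymes of serine synthesis did not follow Psat1: Phgdh, the first step, had a log2 change of 0.01 ± 0.142 SE (9.45, 11.6 and 14.3 against 8.47, 11.5 and 16.9 CPM), and Psph, the last step, one of 0.14 ± 0.0907 SE (edgeR adjusted p = 0.263). With the profile score as a covariate 0 ATF4 arm genes were called, in a fit whose share over all genes is not given here. The log2 changes were then 0.59 for Psat1, 0.10 for Ddit3, -0.68 for Sesn2 and -0.37 for Ppp1r15a.

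**Figure D3:**
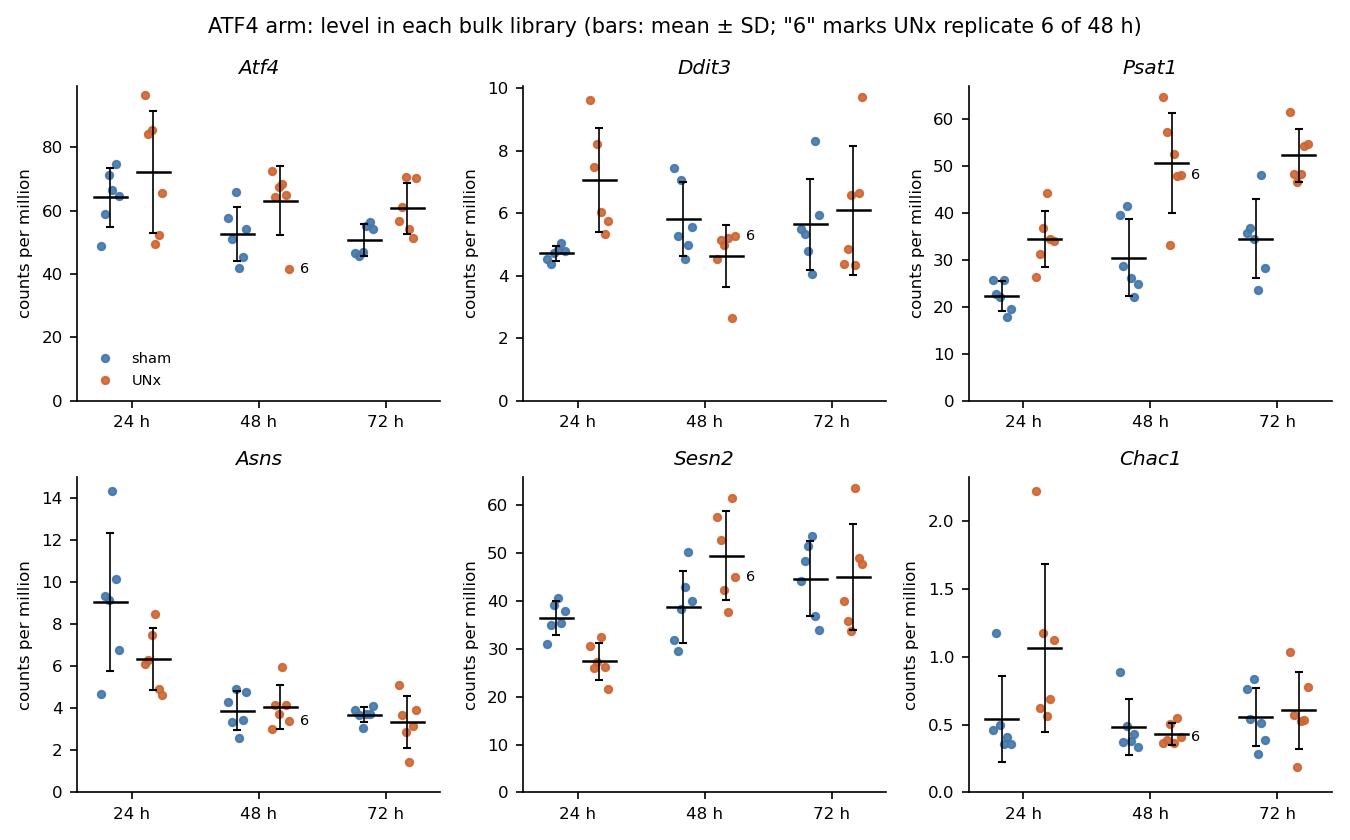
CPM of 6 ATF4 arm genes in each bulk library by time and group, 1 point a mouse, bars for mean ± SD of 6 mice, with UNx replicate 6 of 48 h marked 6. At 24 h Psat1 and Ddit3 are higher in UNx with no overlap, and Sesn2 is lower with overlap. At 48 and 72 h Psat1 is higher in UNx with overlap. Atf4, Asns and Chac1 overlap at each time.

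At 48 h fewer genes of the ER arm passed. Of its 22 genes 6 were higher and 1 was lower in UNx, against 16.9% and 16% of all 14280 genes tested (32.9% in all), and the median log2 change was 0.04 against -0.04 over all genes. UNx lay wholly above sham for 2 genes and wholly below for 1, against 6.21% and 4.81% of all genes (11% in all). Hspa5 stood at 262, 344 and 437 CPM in shams and 309, 348 and 356 CPM in UNx (log2 change -0.02 ± 0.117 SE, edgeR adjusted p = 0.903), so the UNx values lay inside the range of the shams. Sdf2l1 was at 5.04, 5.94 and 9.16 CPM in shams and 4.62, 6.30 and 6.83 CPM in UNx (-0.05). Xbp1 (60.6, 98.7 and 106 against 63.7, 80.5 and 96.0 CPM), Dnajb9 (34.1, 40.4 and 42.8 against 35.4, 42.9 and 48.6 CPM) and Hsp90b1 (350, 399 and 455 against 380, 401 and 453 CPM) did not pass either.

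Manf was again higher, at 18.0, 24.0 and 31.3 CPM in shams and 32.0, 45.7 and 59.8 CPM in UNx, with no overlap (1.86-fold, log2 change 0.89 ± 0.156 SE, edgeR adjusted p = 0.0012). Calr, which had not passed at 24 h, was at 495, 575 and 655 CPM in shams and 589, 823 and 913 CPM in UNx (1.40-fold, edgeR adjusted p = 0.00349). Its partner isomerase Pdia3, which joins calreticulin and calnexin on glycoproteins, was at 341, 354 and 378 CPM in shams and 391, 421 and 451 CPM in UNx, with no overlap (edgeR adjusted p = 0.00635). All UNx mice but replicate 6 were above every sham for Calr. Syvn1 rose again, from 26.5, 32.9 and 39.8 CPM to 31.1, 47.9 and 59.2 CPM (1.43-fold, edgeR adjusted p = 0.00876). Herpud1 (162, 207 and 221 to 197, 247 and 296 CPM, edgeR adjusted p = 0.0431) and Dnajb11 (66.4, 69.6 and 80.0 to 75.5, 82.3 and 97.0 CPM, edgeR adjusted p = 0.0235) rose by under 1.25 times. Eif2ak3 fell, from 35.1, 37.2 and 40.0 CPM to 28.0, 30.9 and 34.0 CPM with no overlap (edgeR adjusted p = 0.00723). Pdia4 had a log2 change of 0.13 and an edgeR adjusted p of 0.116 (81.7, 84.7 and 87.3 against 82.6, 93.6 and 102 CPM). The 15 ER arm genes that did not pass had log2 changes from -0.17 (Canx) to 0.17 (Creld2).

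In the ATF4 arm 1 of the 9 genes tested rose at 48 h and 0 fell, against 16.9% and 16% of all genes. The gene was Psat1, which went from 22.1, 27.5 and 41.5 CPM to 33.2, 50.3 and 64.7 CPM (1.65-fold, log2 change 0.73 ± 0.174 SE, edgeR adjusted p = 0.00664). All UNx mice but replicate 3 stood above every sham. Atf4 was at 41.9, 52.7 and 65.8 CPM in shams and 41.7, 66.0 and 72.5 CPM in UNx (edgeR adjusted p = 0.137). Ddit3 was at 4.53, 5.42 and 7.46 CPM in shams and 2.66, 5.06 and 5.29 CPM in UNx (edgeR adjusted p = 0.159). The groups overlapped in both. Phgdh, the enzyme before Psat1, was at 14.0, 24.5 and 32.1 CPM in shams and 14.1, 15.4 and 22.7 CPM in UNx (log2 change -0.46, edgeR adjusted p = 0.0738). Trib3 (0.402, 0.586 and 1.53 against 0.195, 0.427 and 0.869 CPM) and Asns (2.59, 3.85 and 4.91 against 3.00, 3.93 and 5.94 CPM) did not pass, and Chac1 (0.336, 0.402 and 0.890 against 0.362, 0.400 and 0.546 CPM) was too low to test.

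The library UNx replicate 6 bore on these results. Without it the 48 h calls were 9 in the ER arm, with Canx lower (-0.21) and Pdia4 higher (0.18) added, and 3 in the ATF4 arm, with Atf4 (0.38, edgeR adjusted p = 0.0081) and Sesn2 (0.40, edgeR adjusted p = 0.0474) added, against 41.6% of all genes. Replicate 6 alone was also set against the 6 shams, with its spread taken from the shams. Its log2 changes were 0.04 for Calr, -0.07 for Syvn1 and -0.33 for Atf4, against 0.58, 0.63 and 0.38 in the other 5. For Psat1 they were 0.66 and 0.76, for Dnajb11 0.25 and 0.25, and for Manf 0.39 and 1.00. Leaving out other single libraries gave 5 to 7 ER arm calls, 5 without UNx replicate 1 or 5, and 1 or 2 ATF4 arm calls, 2 without sham replicate 2, sham replicate 5, UNx replicate 3 or UNx replicate 4. Herpud1 was lost on leaving out 8 of 12 libraries (adjusted p up to 0.0884, without UNx replicate 3) and Dnajb11 on 3 (up to 0.0519, without UNx replicate 1). The profile score as a covariate left 0 calls in either arm, in a fit whose share over all genes is not given here. The part of the profile in these results was not tested further.

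**Figure D4:**
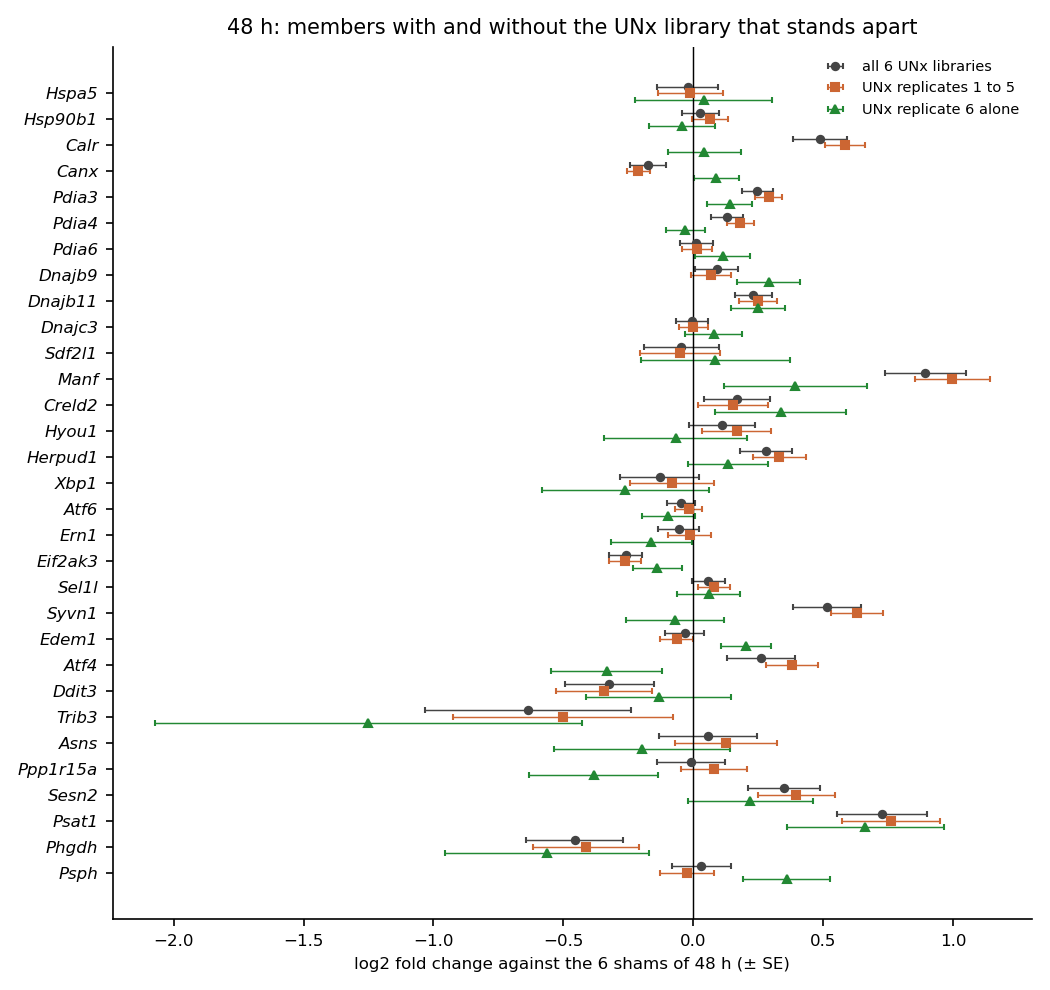
Log2 fold change at 48 h against the 6 shams, with its standard error, for all 6 UNx mice, for UNx replicates 1 to 5 and for UNx replicate 6 alone, by member. Calr, Syvn1 and Atf4 are near or below 0 in replicate 6 and above 0 in the other 5, while Psat1 and Dnajb11 have similar values in both.

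At 72 h no ER arm gene passed. edgeR, DESeq2 and limma voom each gave 0 calls, with 2, 2 and 3 genes at an unadjusted p under 0.05, all higher in UNx. Across all 14556 genes tested 1.71% were called, and groups did not overlap for 2.05% (1.31% with UNx above, 0.749% below), against 0 of the 22. The median log2 change of the arm was 0.07, and 17 of 22 genes were above 0. Hspa5 was at 319, 424 and 618 CPM in shams and 350, 532 and 881 CPM in UNx (0.33 ± 0.216 SE, edgeR adjusted p = 0.468), and Manf at 19.8, 29.0 and 43.9 CPM against 24.7, 39.5 and 69.1 CPM (0.46 ± 0.24 SE, edgeR adjusted p = 0.358). Creld2 (0.38) and Hyou1 (0.29) had positive values too without passing. Xbp1 was at 74.8, 92.3 and 138 CPM in shams and 83.5, 104 and 131 CPM in UNx, and Sdf2l1 at 5.00, 9.91 and 13.0 CPM against 6.30, 9.97 and 15.5 CPM. Hsp90b1 (403, 538 and 668 against 384, 488 and 677 CPM), Calr (519, 746 and 835 against 582, 736 and 921 CPM) and Herpud1 (169, 216 and 232 against 151, 186 and 222 CPM) overlapped as well. The spread between mice was wide: 15 of the 22 genes were highest in UNx replicate 5, 14 were lowest in UNx replicate 6, 17 were highest in sham replicate 2 and 18 were lowest in sham replicate 6.

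In the ATF4 arm Psat1 was higher again, at 23.5, 35.1 and 48.2 CPM in shams and 46.6, 51.3 and 61.5 CPM in UNx. All UNx mice but replicate 3 were above every sham, a 1.52-fold rise (log2 change 0.60 ± 0.137 SE, edgeR adjusted p = 0.043) where 1.21% of all genes were called higher and 0.502% lower. The call held without sham replicate 5 or UNx replicate 6 and was lost on leaving out any of the other 10 libraries (adjusted p up to 0.102, without UNx replicate 1), while the log2 change stayed between 0.51 and 0.72. Psat1 was the only member that rose at all 3 times. Over all genes tested at each time, 0.432% were called in one direction at all 3. Atf4 was at 45.6, 50.5 and 56.5 CPM in shams and 51.3, 58.9 and 70.5 CPM in UNx (0.26 ± 0.0883 SE, edgeR adjusted p = 0.156). Phgdh again had a negative value (16.3, 28.1 and 33.0 against 16.2, 17.7 and 28.2 CPM, log2 change -0.44, edgeR adjusted p = 0.228). Ddit3 (4.05, 5.41 and 8.31 against 4.34, 5.73 and 9.72 CPM), Asns (3.06, 3.73 and 4.1 against 1.43, 3.42 and 5.11 CPM), Chac1 (0.282, 0.528 and 0.834 against 0.184, 0.554 and 1.03 CPM) and Trib3 (0.647, 0.936 and 1.38 against 0.368, 0.757 and 1.69 CPM) did not pass, nor did Sesn2, Ppp1r15a and Psph.

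The differences between times were tested in 1 fit over the 36 libraries. The UNx effect differed between 24 and 48 h for 7 members, where 37% of all 15093 genes did. For Hspa5 it went from 0.64 to -0.02 on the log2 scale (difference -0.63, edgeR adjusted p = 0.0393) and for Dnajb9 from 0.50 to 0.09 (-0.38, 0.0416), each time point's value coming from its own fit. For 3 genes the value turned from above to below 0: Canx from 0.17 to -0.17 (difference -0.31, edgeR adjusted p = 0.0117), Eif2ak3 from 0.26 to -0.26 (-0.49, 0.000457) and Ddit3 from 0.59 to -0.32 (-0.88, 0.00815). Calr went from 0.03 to 0.49 (difference 0.49, edgeR adjusted p = 0.0209) and Sesn2 from -0.41 to 0.35 (0.79, 0.00229). For Hspa5 the call was lost on leaving out 13 of the 24 libraries (adjusted p up to 0.066, without 24 h sham replicate 6) and for Dnajb9 on 10 (up to 0.0836, without 24 h UNx replicate 1). Between 48 and 72 h the effect differed for 1 member, Herpud1 (by -0.43, edgeR adjusted p = 0.0426), against 14.6% of all genes. That call was lost on leaving out 16 of 24 libraries (up to 0.0875, without 48 h sham replicate 1). Without 48 h UNx replicate 6, 4 members differed. Between 24 and 72 h it differed for 0 members in edgeR, DESeq2 and limma voom, with 3 members at an unadjusted p under 0.05 in each, against 4.15% of all genes in edgeR. Time and batch are confounded in the comparisons with 24 h, so these differences cannot be told apart from the batch.

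Wider lists of the same pathways, written with earlier results of these data known, mostly moved in both directions. Their counts stand against 14.2% of all genes higher and 13.1% lower at 24 h, 16.9% and 16% at 48 h, and 1.21% and 0.502% at 72 h. Values of these lists at 48 h are given only with all 6 UNx libraries, where profile and surgery cannot be told apart. Of 31 further ER folding enzymes 9 rose and 6 fell at 24 h, with Mogs (0.36) and Ganab (0.30), which trim glycans, among the rises and Nucb2 (-0.58), a calcium-binding protein, and the prolyl isomerase gene Fkbp2 (-0.41) among the falls. At 48 h 8 rose and 4 fell, and Fkbp2 was then higher (0.74). At 72 h 1 of the 31 passed, Pdia5 (-0.49). Genes of ER entry and glycosylation moved mostly up, 12 up and 4 down of 30 at 24 h and 11 up and 0 down at 48 h. Sec61b, a subunit of the translocation channel, rose by 0.82 at 24 h, and Dad1 and Ssr2, subunits of the glycosylation and translocation machinery, by 0.57 and 0.61 at 48 h. Of 26 further degradation genes 6 rose and 6 fell at 24 h, among them the ATPase gene Vcp (0.40) and the lectin gene Os9 (-0.37), and 11 rose and 3 fell at 48 h, among them the ligase gene Rnf5 (0.70).

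Of 22 further genes of UPR signalling 3 rose and 4 fell at 24 h and 5 rose and 3 fell at 48 h, shares near those of all genes. Creb3l1, an ER-anchored transcription factor, fell by 0.47 at 24 h and rose by 1.02 at 48 h. Here too the 48 h values rest on all 6 UNx libraries, and the 2 times differ in batch. Of 38 other ATF4 targets 7 rose and 2 fell at 24 h and 6 rose and 7 fell at 48 h. Gdf15, a stress-induced secreted cytokine, was at 1.18, 1.48 and 2.47 CPM in 24 h shams and at 2.96, 3.40 and 4.58 CPM in UNx, with no overlap (log2 change 1.16, edgeR adjusted p = 0.000462), and was higher again at 48 h (1.04). Shmt2, the mitochondrial serine hydroxymethyltransferase, rose by 0.83 at 48 h, and the tRNA synthetase gene Sars fell by 0.41 at 24 h. Of the other 13 genes of serine and one-carbon metabolism 5 rose at 24 h and 0 fell, and at 48 h 2 rose and 1 fell. At 72 h 2 of these 13 rose, Tyms (0.32) and Mtr (0.31), which encode thymidylate synthase and methionine synthase.

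The nuclei gave the members by cell class at 24 h. The authors' annotation divides 16500 nuclei into 30 classes, 23 of which had at least 10 nuclei in every mouse and were tested. The other 7, among them podocytes, macrophages and B cells, were not. Summed proximal tubule markers were highest in PTS1, PTS2 and PTS3, thick ascending limb markers in CTAL2, CTAL1 and MTAL, and endothelial markers in EC1 and EC2. Sham and UNx replicate 1 carry the label of batch 3 and both replicates 2 that of batch 4. Mitochondrially encoded RNA made up 0.603% of sham and 0.924% of UNx UMIs in batch 3, and 5.05% and 7.36% in batch 4. Barcodes present in 2 or more libraries numbered 18.

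With 2 mice a group, none of the 497 member and class pairs passed in edgeR without a batch term (5 at an unadjusted p under 0.05), in DESeq2 the counts were 0 and 2, and over all gene and class pairs edgeR called 0%. With the labelled batch as a block 5 pairs passed, against 0.726% of all 219721 gene and class pairs. They were Hspa5 higher in CNT and EC1, Edem1 higher in PTS3, and Xbp1 lower in PTS2 and PTS3, classes in which the block called 0.458% (CNT), 0.836% (EC1), 3.03% (PTS2) and 2.47% (PTS3) of all genes. Over all nuclei 0 of 31 members passed in edgeR without and with the block and in DESeq2, with 0, 6 and 0 at an unadjusted p under 0.05, where the block called 1.04% of all genes. Over the 409 pairs of the ER arm, UNx was higher in both batches for 36.7% and lower in both for 15.6%, where all gene and class pairs gave 22.9% and 30.7%. Over the 88 pairs of the ATF4 arm the shares were 21.6% and 20.5%.

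Hspa5 was higher in UNx than in the sham of the same batch in both batches in 22 of 23 classes, PTS1 being the exception. In CNT it was at 25.3 and 132 UMI CPM in the shams of batches 3 and 4 and at 61.5 and 218 in UNx (log2 change with the block 0.98 ± 0.206 SE, edgeR adjusted p = 0.0212). In EC1, an endothelial class like EC2, it was at 50.2 and 167 in shams and at 112 and 244 in UNx (0.87, edgeR adjusted p = 0.00909). Over all nuclei the values followed the batch more than the surgery. Hspa5 was there 3.19 times as high in batch 4 as in batch 3 in shams and 4.48 times in UNx. It was 1.23 times as high in UNx as in sham in batch 3 and 1.73 times in batch 4. By class, Hspa5 in shams was 1.34 to 5.30 times as high in batch 4 as in batch 3. In all 23 classes the UNx mouse of batch 3 lay below the sham of batch 4. In the proximal classes of batch 3 sham and UNx differed little, at 29.9 and 30.9 in PTS2 and 27.5 and 28.5 in PTS3. Within batches, the Hspa5 ratio of UNx to sham had a median over classes of 1.47 in batch 3 and 1.65 in batch 4. Over all nuclei the ratios were 1.23 and 1.73 for Hspa5, and 1.53 and 1.46 for the share of mitochondrially encoded RNA. The part of that share in the result was not tested. Each of these values rests on few mice: without the block, the log2 change ran from -0.34 to 2.54 in CNT and from 0.025 to 1.90 in EC1, lowest without UNx replicate 2 and highest without sham replicate 2. By mean level Hspa5 was highest in DTL1 (151) and lowest in PTS3 (82.8).

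Xbp1 passed as lower in UNx nuclei of PTS2 and PTS3 only with the block, which called 3.03% and 2.47% of all genes there. It was at 76.4 and 41.3 UMI CPM in the PTS2 shams and at 27.1 and 26.0 in UNx (log2 change with the block -1.10, edgeR adjusted p = 0.0177), and at 59.4 and 37.2 against 23.2 and 23.0 in PTS3 (-1.05, edgeR adjusted p = 0.0253). In PTS1, PTS2, PTS3 and CTAL1 both UNx mice lay below both shams, and in ICA both lay above, of 20 classes tested. Without sham replicate 1 and the block, the log2 change was -0.60 in PTS2 and -0.63 in PTS3, against -1.14 and -1.08 with it. UNx lay below in this way for 11.5% of all gene and class pairs. Over all nuclei it was at 49.6 and 37.1 in shams and 34.1 and 28.4 in UNx, whereas bulk Xbp1 was higher in UNx at 24 h. Edem1, a lectin that marks glycoproteins for degradation, was at 33.9 and 35.2 in the PTS3 shams and 60.7 and 56.2 in UNx (0.76, edgeR adjusted p = 0.0289 with the block), and in 13 of 17 classes it was higher in both batches, whereas its bulk change was 0.00. Manf, higher in bulk, was at 59.9 and 46.5 in all sham nuclei and 46.5 and 44.9 in UNx nuclei. Bulk and nuclear RNA came from different mice, and no test compared them.

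**Figure D5:**
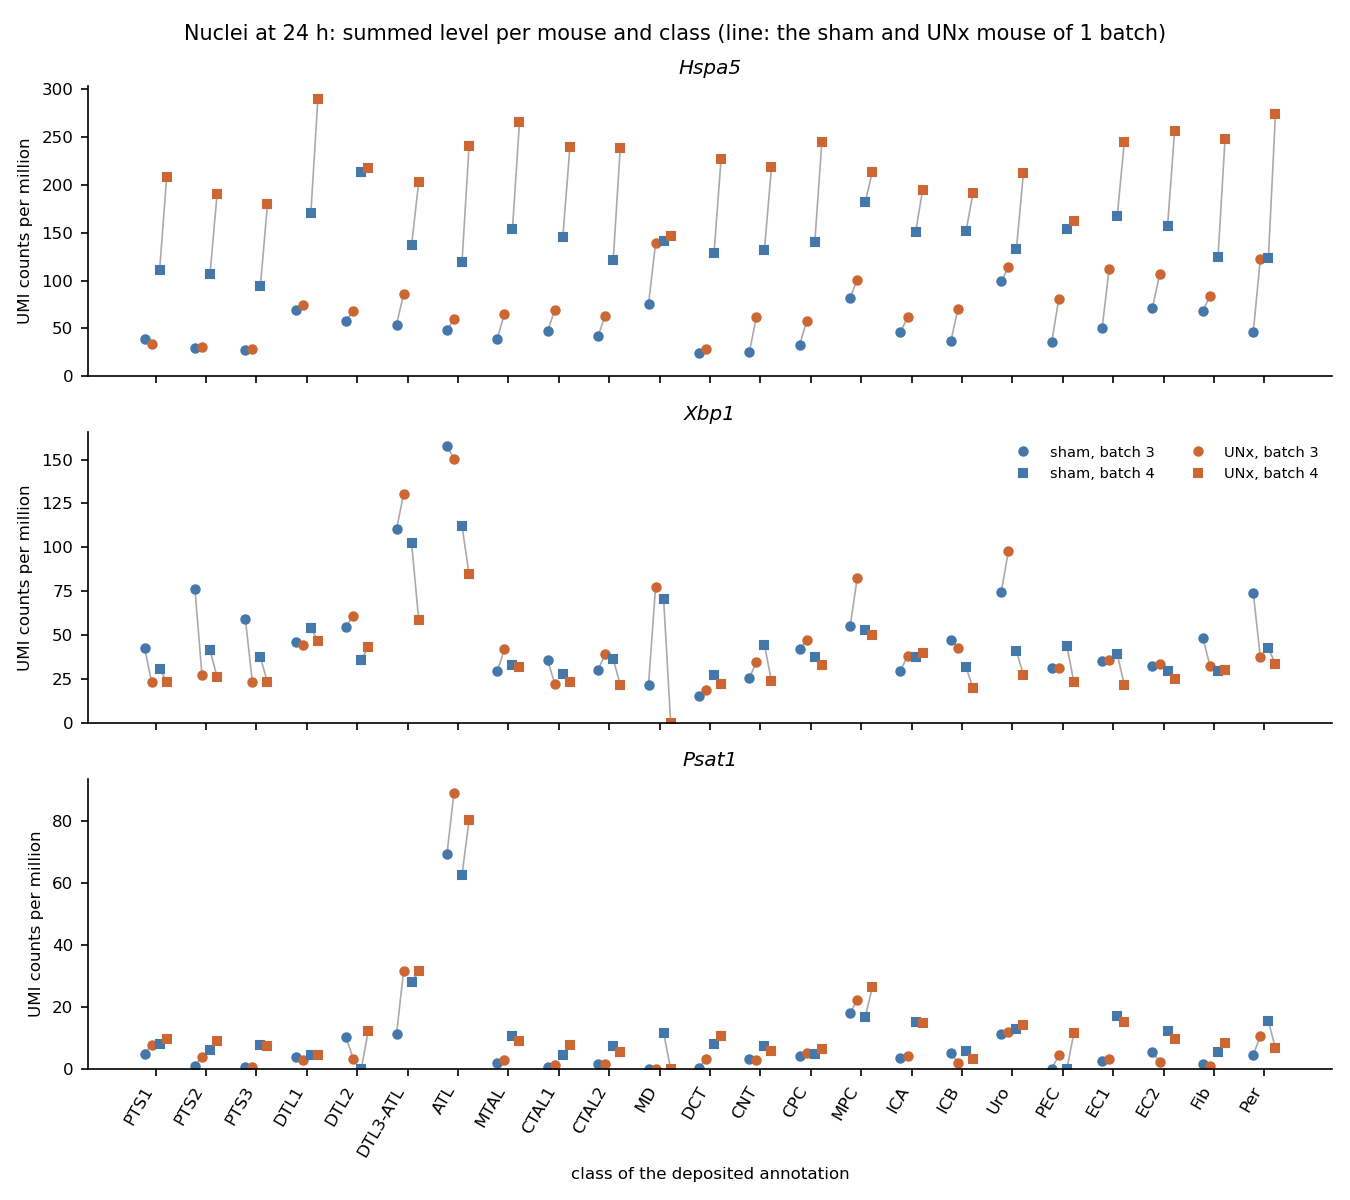
UMI CPM of Hspa5, Xbp1 and Psat1 summed per mouse in each of 23 nucleus classes at 24 h, with a line joining the sham and UNx mouse of 1 labelled batch. Hspa5 lies higher in batch 4 than in batch 3 nearly throughout and rises along most lines, Xbp1 falls along both lines in PTS1 to PTS3, and Psat1 stands out in ATL.

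The ATF4 arm was sparse in the nuclei. Psat1 was concentrated in ATL, at 69.2 and 62.5 UMI CPM in shams and 89.1 and 80.2 in UNx, and was lowest of its 9 tested classes in PTS3, with a mean of 4.14. It was higher in UNx in both batches in 6 of 9 classes, and both UNx mice lay above both shams in ATL, DTL3-ATL and MPC, an arrangement that 8.4% of all gene and class pairs had, without passing the test. Phgdh was likewise highest in the limb class DTL3-ATL (35.1) and lowest in PTS3 (3.34). Ddit3, which rose in bulk, was at 21.3 and 22.2 over all sham nuclei and 19.7 and 23.5 over UNx nuclei, so the groups overlapped. Atf4 was at 21.8 and 21.4 in shams and 22.8 and 17.4 in UNx. Sesn2, which fell in bulk, was at 18.2 and 22.7 in shams and 22.6 and 20.1 in UNx. Chac1 had 9 and 6 UMIs in all sham nuclei and 4 and 6 in UNx nuclei and was not tested.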

How the data were processed

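Groups, times, replicate numbers and batches came from the labels, and each bulk library is 1 mouse. The authors deposited estimated counts per gene for the bulk libraries (Salmon 1.5.0, GRCm39) and expected UMI counts per nucleus (alevin, mm10), with tools and builds per the submitters' processing notes and no normalization in the files. No label states the settings, the filter on nuclei or whether doublets were removed, and doublets were not called here. Counts were rounded, for nuclei after summing per mouse and class, and tested with edgeR 4.0.16 (filterByExpr, TMM, quasi-likelihood, two-sided, Benjamini-Hochberg over all genes) in R 4.3.3. DESeq2 1.42.0 and limma 3.58.1 (voom with quality weights) were alternatives, with another normalization, no filter, no mitochondrially encoded genes, 1 fit of 36 libraries, a replicate block, a profile covariate and each library left out. CPM are per M of TMM-scaled library size, and in nuclei per M UMIs. Coordinates are those of GENCODE on GRCm38 and RefSeq on GRCm38.p6. The test was checked on simulated counts. The members, lists, tests and alternatives were chosen with earlier results of these data known. All members are counted. By rule, lowest, median and highest values are given for 16 members picked by role and for others called at a time, up to 6 per arm. At most 3 called genes in each direction are named per wider list, and nucleus pairs are named when called. Nuclei of same-numbered mice share a labelled batch, and their deviations correlated at 0.850, so the block pairs them.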

Additional observations from a re-analysis of the deposited data

Results flagged for a closer look

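Within groups of 6 bulk mice, a single library stood far from the other 5 (a gap above Dixon's 95% critical value) in 23 of 162 member and group sets. Chance gives about 1 in 20 for independent sets, but these sets share libraries and are not independent, so the number says nothing particular about the members. At 24 h, sham replicate 4 was high for Pdia4 (155.9 CPM), Manf (56.0), Creld2 (30.1), Hyou1 (159.0) and Sel1l (126.7), and sham replicate 2 for Chac1 (1.18). UNx replicate 1 was high for Dnajb9 (74.1), Herpud1 (309.7), Sel1l (159.6), Syvn1 (80.2) and Chac1 (2.22), and UNx replicate 2 was low for Canx (461.7). At 48 h, sham replicate 1 was high for Canx (490.5), Pdia6 (149.3), Sdf2l1 (9.16), Trib3 (1.53) and Chac1 (0.890). UNx replicate 6 was high for Canx (488.4) and low for Atf4 (41.7), and UNx replicate 5 was low for Ddit3 (2.66). At 72 h, UNx replicate 5 was high for Syvn1 (60.2), and UNx replicate 6 for Ppp1r15a (15.9) and Phgdh (28.2).

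The UNx effect itself differed between times, tested by interaction in edgeR over 36 libraries. From 24 to 48 h the log2 difference was -0.63 for Hspa5, 0.49 for Calr, -0.31 for Canx, -0.38 for Dnajb9, -0.49 for Eif2ak3, -0.88 for Ddit3 and 0.79 for Sesn2. From 48 to 72 h it was -0.43 for Herpud1. These 7 and 1 members stand against 37% and 14.6% of all genes. The differences from 24 to 48 h cannot be told apart from the batch. The calls of Hspa5, Dnajb9 and Herpud1 were lost on leaving out 13, 10 and 16 of 24 libraries.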

How the results depend on the processing

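With the profile score as a covariate, 0 members were called in the ER and ATF4 arms at 24 and 48 h, in the ATF4 arm at 72 h, and in the differences between 24 and 48 h and between 48 and 72 h. The share of all genes called in these fits is not given here. The score divides the UNx from the sham groups at 24 h, so little independent spread is left there. Its values turned sign for Herpud1 (-0.10) and Eif2ak3 (-0.25) at 24 h, Canx (0.074), Pdia4 (-0.026), Syvn1 (-0.12) and Atf4 (-0.37) at 48 h, and Calr from 24 to 48 h (-0.26) and from 48 to 72 h (0.054). Without UNx replicates 1 to 5 of 48 h, 1 UNx library is left at that time. Canx (0.088), Pdia4 (-0.031), Syvn1 (-0.070) and Atf4 (-0.33) then turned sign at 48 h, and Calr (0.059) and Canx (-0.016) from 48 to 72 h. The 48 h ATF4 arm count of 1 became 2 with DESeq2, 3 with limma voom and 2 in 1 fit of 36 libraries. The count of 1 between 48 and 72 h became 4 with limma voom and 0 without a filter on low counts, and the cause was not tested. The share of all genes called under these alternatives is not given here. Nor is it given for the fits that leave out 1 library, except 48 h without UNx replicate 6 (41.6%). Leaving out 1 library gave 9 to 14 calls (24 h, ER arm), 4 to 5 (24 h, ATF4 arm), 5 to 9 (48 h, ER arm), 1 to 3 (48 h, ATF4 arm), 0 to 0 (72 h, ER arm), 0 to 1 (72 h, ATF4 arm), 5 to 9 (24 against 48 h), 0 to 4 (48 against 72 h), 0 to 1 (24 against 72 h, 1 without 72 h UNx replicate 5) and 0 to 0 (nuclei). The log2 change of Hspa5 in CNT nuclei without the block ran from -0.34 (without UNx replicate 2) to 2.54 (without sham replicate 2), that in EC1 from 0.025 to 1.90 without the same mice, and Xbp1 moved from -1.14 to -0.60 in PTS2 and from -1.08 to -0.63 in PTS3 without sham replicate 1. Of the other values under all alternatives 1101 kept direction and side of the threshold, 148 fell short of it, 57 passed it and 15 turned sign.

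The bulk replicate numbers share only a number: same-numbered deviations correlated at -0.196 to 0.0603 (24 h), -0.174 to 0.0739 (48 h) and -0.356 to 0.138 (72 h), and 0, 1 and 1 of 6 UNx libraries correlated best with their own number. A replicate block gave 12 and 3 calls at 24 h, 6 and 1 at 48 h and 0 and 1 at 72 h (ER and ATF4 arm), 6 between 24 and 48 h and 0 between 48 and 72 h. The share of all genes called in these bulk fits is not given here. In the nuclei the block by batch gave 5 pairs in place of 0, against 0.726% of all gene and class pairs. Over all nuclei it gave 0 calls, against 1.04% of all genes.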
